A study of Dicentrarchus labrax with 16 samples.

Results

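The 200 genes described here had the highest muscle values among the genes that the authors listed for muscle and not for testis of the European sea bass (Dicentrarchus labrax). They were chosen by the muscle value itself and by absence from the testis table, so their high values are a description and no test was made on them. The authors listed 12715 genes for muscle and 16380 for testis, out of 26719 gene identifiers in all, and 2177 genes were in the muscle table alone. The 200 members therefore made up 1.57% of the genes of the muscle table and 9.19% of the genes listed for muscle alone.

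The RNA came from muscle and testis of wild, untreated adult males of similar size, caught with a speargun outside the reproductive season and dissected on board, and gave 5 muscle and 5 testis libraries for RNA-seq. All fish were wild and of no stated strain or age, both tissues came from the same fish, and the study left out 1 muscle library as an outlier. The deposited tables hold 1 value per gene and tissue, named cpm (reads of a gene relative to the size of the library), with no value per fish. No spread between fish, error or test across fish can be given, and the depth of the libraries is unknown from these tables. The values of the muscle table summed to 1111921 and those of the testis table to 801212, so they were used as expression levels of no fixed unit. They are not divided by gene length, so a higher value stands for a larger share of the reads and not necessarily for more transcripts. Both tissues are mixtures of cells, and fewer cells of a type and less RNA per cell cannot be told apart.

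Skeletal muscle fibres are filled with sarcomeres, the repeated units in which myosin filaments pull on actin filaments, with troponin and tropomyosin setting when they may do so. A few transcripts for contractile proteins, calcium-binding proteins such as parvalbumin and enzymes of energy supply such as creatine kinase are known to take up much of the messenger RNA of fish muscle. Testis is known for the opposite, a broad range of transcripts spread over many genes. The files do not pair the identifiers with gene names, and 0 of the 26719 identifiers matched the gene table at hand, so no member could be assigned to any of these families and the label of the tissue could not be checked against marker genes. Each member is named below by its identifier alone.

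The highest member was DLAgn_00168130, with a muscle value of 35158.85, which was 3.16% of the summed muscle values. It stood at rank 7 of the whole muscle table, behind 6 genes that were listed for both tissues. The next member was DLAgn_00058740, with a muscle value of 16105.5 (1.45% of the sum) at rank 16. The highest member was thus 2.18 times the next one on the scale of reads, and these 2 were the only members above 10000. The third was DLAgn_00239510 at 6427.37 (0.578% of the sum, rank 32).

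The next members lay closer together. DLAgn_00001600 had a muscle value of 3263.15 and DLAgn_00156950 had 3226.01, at ranks 44 and 45 of the muscle table. DLAgn_00212620 followed with 2823.84, DLAgn_00227080 with 2474.35 and DLAgn_00246320 with 2292.31. Of the 10 highest members, the last 2 were DLAgn_00046930 at 1991.68 and DLAgn_00025490 at 1712.34. With 1 value per gene, the order of neighbours such as DLAgn_00001600 and DLAgn_00156950 could not be set against a spread between fish.

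Across the 200 members the muscle value ran from 51.4 to 35158.85, with a median of 116.2 and quartiles of 77.7 and 327.6. The highest member was 303 times the median member. There were 20 members between 1000 and 10000, 94 between 100 and 1000, and 84 under 100. The mean, 616.9, lay above the upper quartile, so a few members held most of the sum. At the lower end, DLAgn_00225760 was the last member, with a muscle value of 51.4. The first gene outside was DLAgn_00251790, with 50.8, so the edge of the set did not fall at a gap in the values.

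Together the members held 11.1% of the summed muscle values. All 2177 genes listed for muscle alone held 12.8%, so the members accounted for 87.0% of that sum and the other 1977 genes for 1.66% of the muscle table. Within the set, 5 members reached 50% of the members' sum and 71 reached 90%. The 2 highest members held 41.6% of the members' sum and the 10 highest held 61.2%. The 100 lowest members held 6.40%, which was 0.710% of the muscle table. With DLAgn_00168130 taken out of both the members and the muscle sum, the other members held 8.19% of what was left.

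**Figure D1:**
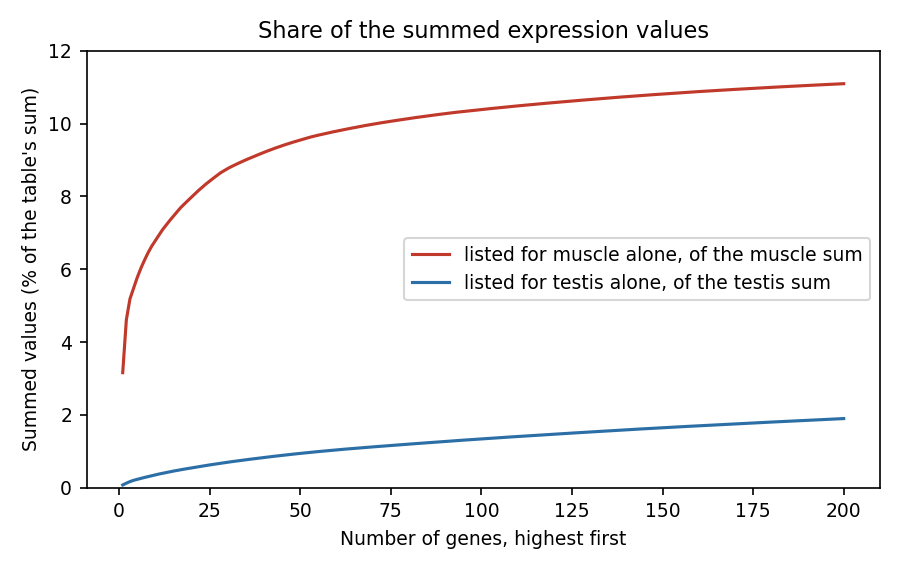
Summed expression values in percent of the table's sum (y axis) against the number of genes taken from the highest down (x axis), for the 200 members in the muscle table (red) and for the 200 highest genes listed for testis alone in the testis table (blue); each is the authors' value for a tissue. The red line starts at 3.16% with 1 gene and ends at 11.1%, and the blue line ends at 1.90%.

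The 200 highest genes listed for testis alone, taken by the same rule with the tissues exchanged, showed a flatter profile. Their testis values ran from 37.4 to 638.3 with a median of 54.1, and they held 1.90% of the summed testis values. In that set 51 genes were needed to reach 50% of the set's sum, against 5 in the muscle set. The values of the 2 tables did not sum to the same total, so for these 2 sets shares and not values were compared. For both sets the rule used these values, and the difference was not tested.

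Among the genes listed for both tissues, the 200 with the highest muscle values held 73.9% of the muscle sum, with a median of 529.1 and a highest value of 96984.1. The members were therefore not the main part of the muscle table's sum. Of the 15 highest genes of the muscle table, 1 was a member, and of the 50 highest, 7 were. Of the 100 highest, 28 were members, and of the 200 highest, 47. Down to the value of the last member there were 1016 genes in the muscle table, of which the members made up 19.7%, while genes listed for muscle alone made up 17.1% of the whole muscle table. Per 100 ranks, between 12 (ranks 701 to 800) and 28 (ranks 1 to 100) genes were members.

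**Figure D2:**
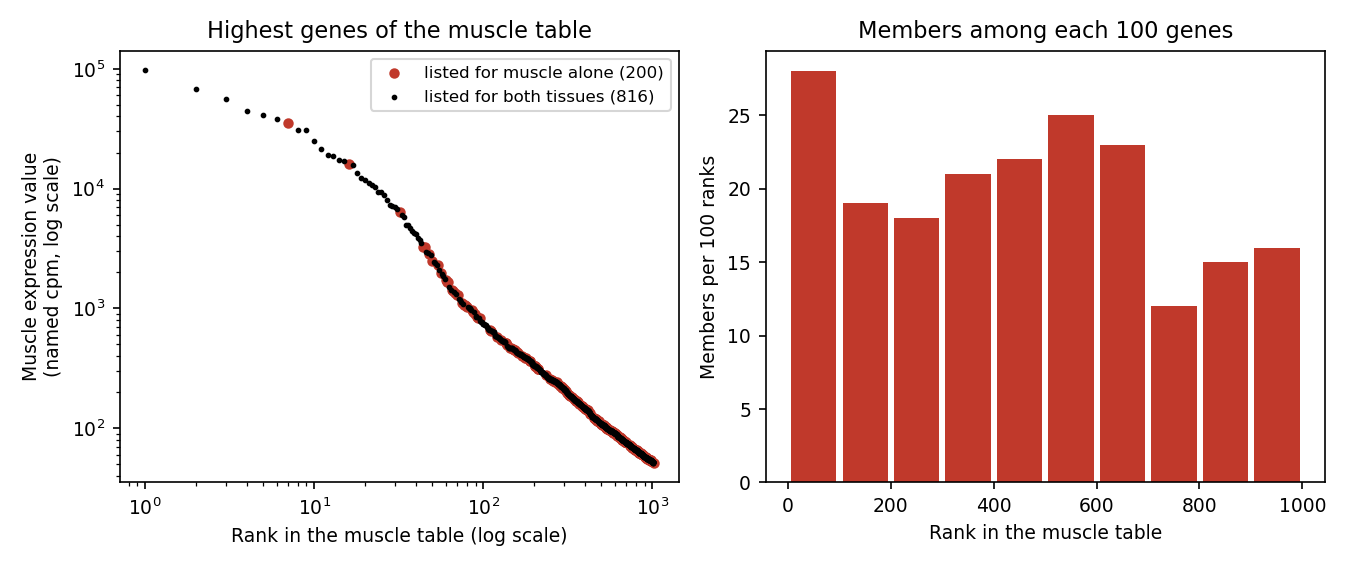
Left, muscle value (y axis, named cpm, log scale) against rank in the muscle table (x axis, log scale) for the 200 members (red) and the 816 genes listed for both tissues (black) down to the value of the last member; right, the number of members in each 100 ranks. The first member is at rank 7, and members are found in every 100 ranks, from 12 to 28 of them.

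The identifiers run without gaps from 10 to 267190 in steps of 10, so genes whose numbers differ by 10 are successive in the authors' annotation. How the numbers map to positions on the sea bass genome (dicLab) was not analysed here, so closeness of numbers is not stated to be closeness on a chromosome. The numbers were not used to choose the members. Those of the members ran from 1600 to 267090, with a median gap of 95 steps between neighbouring members and a largest gap of 717 steps.

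How many members have another member beside them in the numbering depends on the set size, here 200 of 26719 identifiers. There were 10 of 200 members (5%) with another member at the very next number, and they formed 5 pairs and no longer run. Within 5 steps of another member there were 14, and within 10 steps 32 (16%). None of the 10 highest members was in a pair of successive numbers. The same counts were taken in other sets of 200 genes. Among the 200 genes ranked next in the list for muscle alone, 10 were at successive numbers and 36 within 10 steps. Among the 200 highest genes listed for testis alone the counts were 2 and 32. Among the 200 genes of highest muscle value listed for both tissues, 8 were at successive numbers, but 37 (18.5%) lay within 5 steps of another and 57 (28.5%) within 10 steps, against 14 (7%) and 32 (16%) of the members. The genes of a set are not independent, so these counts are given as a description.

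The 5 pairs differed in how alike their values were. DLAgn_00195340 and DLAgn_00195350 had muscle values of 330.2 and 331.9, which differed by a factor of 1.01. DLAgn_00035640 and DLAgn_00035650 had 92.0 and 88.3, a factor of 1.04. Values this close are also what reads shared between near-identical copies would give, which was not tested since no sequence of these genes was at hand.

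The other pairs lay further apart. DLAgn_00015820 and DLAgn_00015830 had muscle values of 512.1 and 1332.05, a factor of 2.60. DLAgn_00227010 and DLAgn_00227020 had 92.2 and 890.3, a factor of 9.66. DLAgn_00004850 and DLAgn_00004860 had 1395.86 and 67.2, a factor of 20.8. The genes of the widest pair stood at ranks 14 and 164 among the members. DLAgn_00227080, the member ranked 7 with a muscle value of 2474.35, lay 6 steps beyond DLAgn_00227020, so that these 3 members formed the set with the highest sum within 10 steps (3456.84). It was chosen after its values were seen.

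Factors under 1.1 were found in 2 of the 5 pairs of members. There were 79 pairs of successive identifiers in which both genes reached the value of the last member, the 5 pairs of members among them. Of these 79 pairs, 8 (10.1%) had so small a factor. Among all 7085 successive pairs listed for muscle, which also hold the pairs of members, there were 378 (5.34%). The median factor was 2.60 in the pairs of members, 2.32 in the 79 pairs and 3.05 in all pairs.

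**Figure D3:**
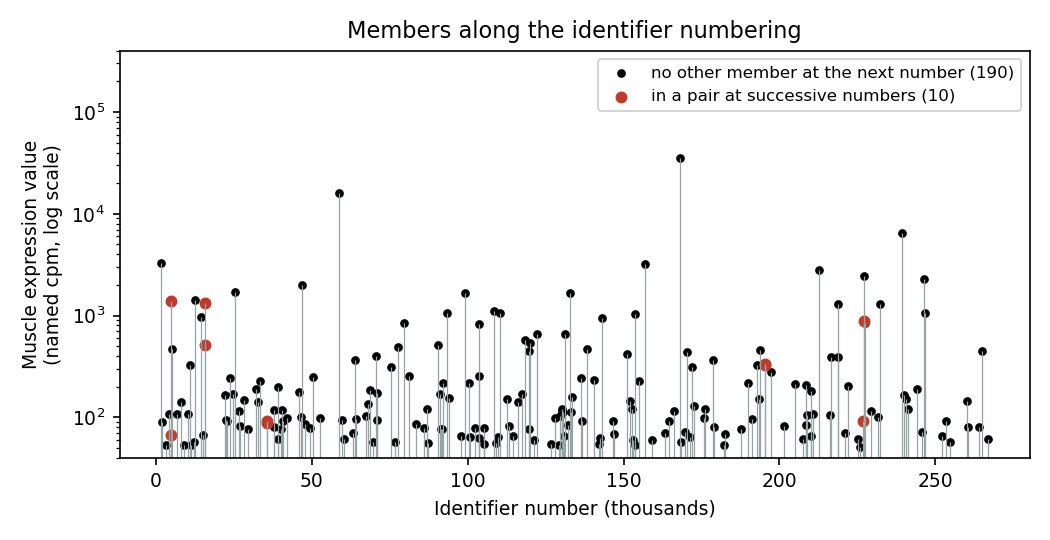
Muscle value (y axis, named cpm, log scale) of each of the 200 members against its identifier number divided by 1000 (x axis). Red points are the 10 members in pairs at successive numbers and black points the other 190; the 2 members above 10000 stand far apart in the numbering and neither is in a pair.

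Every member has 1 gene on each side in the numbering, which gave 400 neighbours. Of these, 44.8% were listed for both tissues, 12% for muscle alone, 19% for testis alone and 24.2% in neither table. Around the other 1977 genes listed for muscle alone, the shares were 44.7%, 10.3%, 18.5% and 26.5%. Around all genes of the muscle table they were 46.3%, 9.45%, 19.8% and 24.4%. The genes beside the members were thus spread over the tables much as those beside any muscle gene. For 26 members (13%) the next number up was listed for muscle alone, against 9.37% of the other genes of the muscle table. Within 5 steps on either side the order was turned, with 59% of the members and 60.5% of the other genes.

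The level of the neighbours was also described. Of the 400 neighbours, 227 were in the muscle table, and their median muscle value was 7.88. Of them, 32 (14.1%) reached the value of the last member. For comparison, 816 genes listed for both tissues had muscle values at or above that of the last member, with no upper limit. Their neighbours had a median of 7.97, and 13.1% reached the value of the last member. Around all genes of the muscle table, the median was 6.12 and the share 8.40%. Neighbours of high genes thus had somewhat higher values in both lists, and the members did not stand apart from these 816 genes listed for both tissues.

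Along the numbering the members were spread over all 27 blocks of 1000 successive identifiers, with 3 to 12 members per block. The share of genes listed for muscle fell at about number 210000. In the first 21 blocks 53.6% of the identifiers were in the muscle table, and in the last 6 blocks 25.6%. The first 21 blocks held 165 members, which were 1.47% of their genes listed for muscle, and the last 6 blocks held 35, which were 2.39%. Genes listed for muscle alone, of any value, made up 17.1% and 17.5% of the genes listed for muscle. The border was placed after the blocks were seen. What the late numbers stand for in the annotation was not given in the sources used here.

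**Figure D4:**
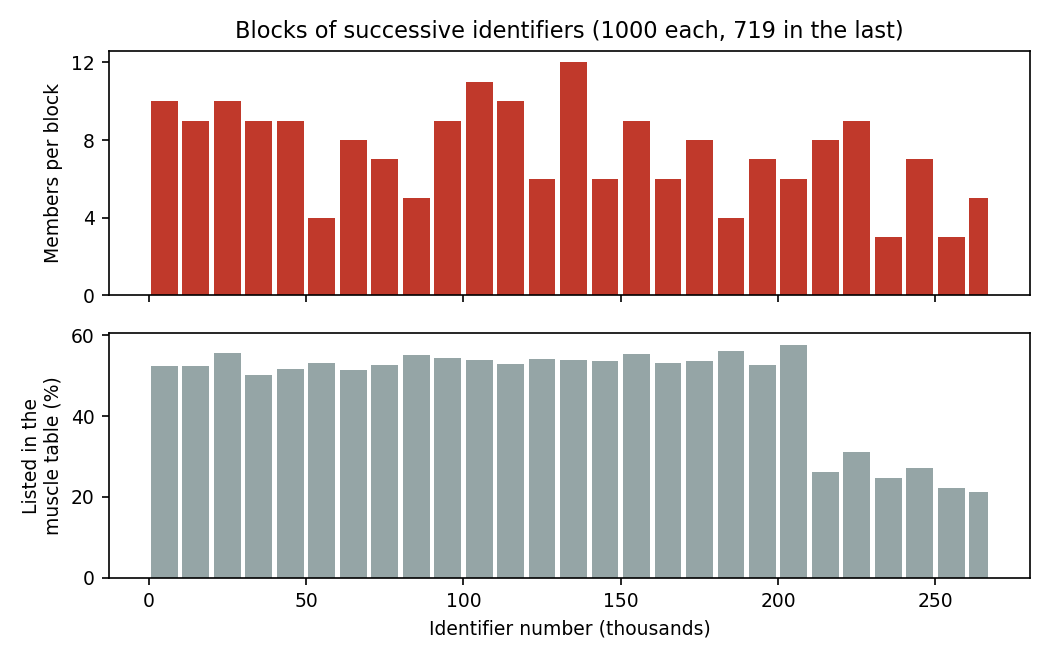
Number of members (top, red) and percent of identifiers listed in the muscle table (bottom, grey) in blocks of 1000 successive identifiers, with 719 in the last, against the identifier number divided by 1000. The members range from 3 to 12 per block, while the share listed for muscle is at least 50.2% up to number 210000 and at most 31.1% beyond it.

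Absence from the testis table did not come with a stated limit. The lowest value listed for testis was 0.254 and the lowest listed for muscle 0.00823. The study counted a gene as specific to a tissue when it was expressed in that tissue alone, whatever its level, but the numeric limit below which a gene was left out of a table was not given in the sources used here. A further level was therefore described, the authors' value for each gene over libraries of both tissues, which stands in the table of their comparison under the name baseMean. Its scale and the libraries behind it are not stated, so it was read only relative to the muscle value and only between genes. It rests on libraries that also gave the muscle values and is not independent of them.

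Among the genes listed for both tissues, the ratio of this level to the muscle value rose with the testis value over the muscle value. The muscle value divides both, so part of this rise is built in. Whether muscle and testis values share a scale was not given in the sources used here. The groups below therefore only order the genes coarsely. Where the testis value was under 0.1 of the muscle value (158 genes), the median ratio was 143.5, with 90% of the genes between 97.7 and 269.3. It was 156.0 where the testis value was 0.1 to 0.3 of the muscle value (141 genes), 175.7 where the testis value was 0.3 to 1 of the muscle value (548 genes), 209.1 at 1 to 3 (1734 genes) and 307.9 at 3 to 10 (4357 genes). These groups overlapped widely. The members, with no testis value listed, had a median ratio of 174.3, with 90% from 100.96 to 344.67. Of the 200 members, 165 lay within the range of 97.7 to 269.3, 28 above it and 7 below. The groups also differed in muscle value, with a median of 460.1 in the first group, 35.4 in the group at 0.3 to 1 and 116.2 in the members. A set of 816 genes listed for both tissues had muscle values at or above that of the last member, with no upper limit and a median of 104.4. Their median ratio was 185.9, with 90% between 115.4 and 341.8, which covers most of the members' range. These genes could have any testis value. The 133 of them with a testis value under 0.1 of the muscle value had a median ratio of 142.0, with 90% between 98.1 and 271.6. Their median muscle value was 676.4, against 116.2 in the members. No testis level of a member can be read from the ratio. Differences between fish in muscle also move this ratio, and their part was not tested.

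The ratio differed within the set. It was 110.4 for DLAgn_00168130 and 101.01 for DLAgn_00239510, on the low side, and 205.4 for DLAgn_00058740. Of the 10 highest members, 6 lay under 143.5, and 2 lay above 269.3, namely DLAgn_00246320 at 313.2 and DLAgn_00046930 at 281.6. By rank, the median was 151.3 for members 1 to 50, 161.3 for the following 50, 181.0 for the next 50 and 190.5 for the last 50. For the other 1977 genes listed for muscle alone, with a median muscle value of 5.10, it was 336.8. The muscle value is the divisor of this ratio and also sets the ranks, so a higher ratio at lower muscle values is partly built in. The highest ratio among the members was 552.7, for DLAgn_00208600 with a muscle value of 83.8, and the lowest was 47.6, for DLAgn_00130440 with a muscle value of 113.6. Both were chosen after their values were seen.

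**Figure D5:**
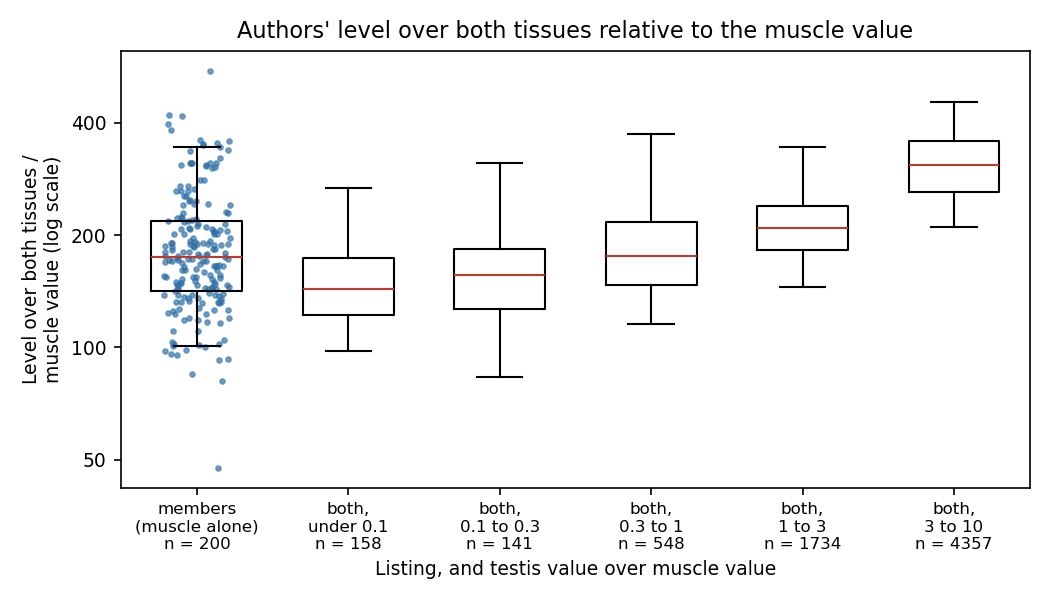
Ratio of the authors' level over both tissues to the muscle value (y axis, log scale) for the 200 members (blue points with box) and for genes listed for both tissues, grouped by testis value over muscle value (x axis); boxes show quartiles and median, whiskers the 5th and 95th percentiles over genes. The members' median, 174.3, lies just above the box of the group under 0.1, whose upper quartile is 173.3. It lies within the boxes of the groups from 0.1 to 0.3 and from 0.3 to 1. The muscle values of all these groups differ from those of the members, and genes above 10 are not drawn.

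The levels over both tissues were also counted by listing. The members were chosen by muscle value, and this level rests on the same libraries, so their high place was partly fixed in advance. A listed value of like size did not go with a like level in muscle and testis. Genes listed for muscle alone had a median muscle value of 5.94 and a median level of 2175.5. Those listed for testis alone had a median testis value of 4.69 and a median level of 150.2. The counts therefore do not show which genes are as abundant as the members. The members had levels from 5405.23 to 3881337 with a median of 23117.9. Of the 8162 genes in neither table, 3 were above the lowest member, and of the 5842 genes listed for testis alone, 6 were. Of the 10538 genes listed for both tissues, 2075 (19.7%) were. Of the 2177 genes listed for muscle alone, with the members among them, 482 (22.1%) were. The lowest member in this level was DLAgn_00130440, which also had the lowest ratio to the muscle value (47.6). Genes missing from both tables were nearly all below every member in this level. Since the members were chosen for high muscle values, this separation follows in part from the choice.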

How the data were processed

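RNA-seq reads of muscle and testis were aligned by the authors with the GEMtools pipeline to the sea bass genome, quantified per gene and normalized by TMM, and 1 muscle library was excluded. The deposited value per gene and tissue, named cpm, and the deposited baseMean over both tissues were both used as a signal of no fixed unit. How fish were combined was not given in the sources used here. The fold changes, test statistics, p-values and adjusted p-values of the authors' comparison were not used. The RRBS libraries (3 muscle, 3 testis) were not used, since no gene positions were at hand.

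Genes in the muscle table and not in the testis table were ranked by muscle value and the first 200 were taken. No pseudocount or filter was applied. Identifier numbers were divided by their step of 10 to give positions, and members were joined up to 1, 5 or 10 steps apart. The named genes were the 10 highest, all members at successive numbers and the genes on either side of the edge. The members and lists were chosen with earlier results of these data known. Set sizes of 100 and 400, a low limit of 1 and other step limits were tried. Functions were tested on simulated data. Python 3.11.15, numpy 2.4.6, pandas 2.3.3 and matplotlib 3.10.9 were used.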

Additional observations from a re-analysis of the deposited data

How the results depend on the processing

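The share of the muscle sum held by the set was 10.4% with the 100 highest genes, 11.7% with the 400 highest, and 8.19% without the highest member in set and sum, against 11.1%. The median value was 328.3 and 51.1 with 100 and 400 genes, against 116.2, because the set size fixes how far down the ranking it reaches. With 100 genes 4, and with 400 genes 30, were at successive numbers. Within 10 steps there were 32 members in 15 runs, against 10 in 5. Of the 100 and the 500 highest muscle genes, 28 and 108 were members, against 47 of the 200 highest. A gene listed for muscle alone lay at the next number for 13% of members and within 5 steps for 59%. Among the other genes of the muscle table the shares were 9.37% and 60.5%. When values under 1 were taken as not listed, which was added after the data were seen for all but the number of genes, 2110 genes were listed for muscle alone, 199 members stayed, and the median was 117.3. The other alternatives left the values at the same 3 digits, or a count within 1.5 times. No paired analysis was possible because the tables hold 1 value per tissue, and for the same reason no fish could be left out in turn.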

Other observations

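When values under 1 were taken as not listed, 1 gene entered the set. DLAgn_00126010 had a muscle value of 233.5 and a testis value of 0.901, and it took the place of DLAgn_00225760, the last member. The other 199 members were the same genes.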
